A study of Mus musculus with 6 samples.

Results

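The genes described here were the IGF and mTOR growth genes, a set of 9 chosen by name: the ligands Igf1 and Igf2, the receptor Igf1r, the binding proteins Igfbp4 and Igfbp5, the kinase gene Mtor, its complex subunit Rptor, the inhibitor Deptor and the translation target Eif4ebp1. All H3K27ac peaks that the deposited tables assigned to 1 of these genes were taken, at promoters and elsewhere. They came to 46 of 46988 peaks in the list of control mice and 35 of 40721 peaks in the list of detrained mice. The study compared quadriceps of sedentary mice kept in cages without wheels with quadriceps of mice that ran voluntarily for 4 weeks from 8 weeks of age and then rested for 72 hours before harvest, a state the study called detrained. All mice were wild type and, by the study's methods, male C57BL/6J. The labels give C57BL/6 for the H3K27ac libraries and spell the strain of the inputs otherwise (C57BL/7 and C57BL/8). Each group had 2 H3K27ac ChIP-seq libraries (C2 and C3 for control, Ex1 and Ex2 for detrained) and 1 input library, and by the study's methods each library was made from 1 quadriceps of 1 animal. The nuclei were not sorted by cell type, and fewer nuclei of a type cannot be told apart from less acetylation per nucleus.

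IGF1 is made both in liver and locally in muscle, and it binds the receptor tyrosine kinase encoded by Igf1r. The receptor signals through insulin receptor substrates, PI3K and AKT to mTORC1, the complex of the kinase mTOR with its scaffold RAPTOR. mTORC1 phosphorylates 4E-BP1, the product of Eif4ebp1, which then releases the cap-binding factor eIF4E so that translation can start. DEPTOR binds mTOR and inhibits it, and IGFBP4 and IGFBP5 are secreted proteins that hold IGFs and set their access to the receptor. H3K27ac is a histone mark of active promoters and enhancers, and its level at a gene is a measure of the chromatin and not of the transcript or the protein.

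The 4 H3K27ac libraries held 20805019 to 22400894 tags, of which 44.7% to 49.4% lay in the listed peaks, and the inputs held 10812470 tags for control and 21298438 for detrained mice. The myofibre genes Acta1, Ckm, Ttn, Myh4, Mylpf and Actn3 all had peaks in both lists, while Tnnt3 had none. The tables hold no tag counts per library, so the pooled tags of a peak were shared out between the libraries of its group by their log2 values. Density is given as tags per kb of peak per 10000000 tags of the library. A shared pair was 1 control peak and 1 detrained peak that covered at least 50% of each other and overlapped nothing else to that extent. The log2 ratio of a pair is the mean log2 density of the detrained libraries minus that of the control libraries, and its SD is the spread within groups, pooled. The log2 values used to share out the tags were shrunken, most at low tag numbers, which can draw the libraries of a group together. The SD can therefore be too small and the groups can seem not to overlap, most of all at weak pairs. The 2 tables had been normalized separately and 2 against 2 libraries cannot give a two-sided exact permutation p under 0.333, so the groups were not tested against each other. Instead, a pair counted as changed when the difference was 1.3-fold or more and the libraries of the groups did not overlap.

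RefSeq promoter sequences (GRCm38.p6, the same assembly as mm10, 300 bases around a start, most of them before it) were at hand for 7 of the 9 genes, Igf1, Igf2, Igf1r, Igfbp4, Igfbp5, Mtor and Rptor. They are shown for the genes whose start lay in a shared pair annotated as a promoter in the control list, with a 300-base stretch from the middle of the Igf1 intron 2 pair, which had the lowest log2 ratio of the set. Capitals mark matches on either strand to the CCAAT box (CCAAT), the GC box (GGGCGG), the TATA box (TATAAA), an AP-1 site (TGANTCA), a MEF2 site (CTA and TAG with 4 bases between), an ERR site (TCAAGGTCA) or a FoxO site (GTAAACA).
Igf1 promoter, chr10:87860861-87861160, plus strand: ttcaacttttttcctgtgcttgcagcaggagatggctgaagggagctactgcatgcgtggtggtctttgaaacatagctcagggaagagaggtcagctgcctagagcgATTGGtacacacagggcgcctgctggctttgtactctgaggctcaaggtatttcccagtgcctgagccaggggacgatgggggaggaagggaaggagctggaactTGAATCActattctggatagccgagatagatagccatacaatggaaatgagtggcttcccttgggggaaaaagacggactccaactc
Igf1 intron 2 pair, middle, chr10:87902338-87902637, plus strand: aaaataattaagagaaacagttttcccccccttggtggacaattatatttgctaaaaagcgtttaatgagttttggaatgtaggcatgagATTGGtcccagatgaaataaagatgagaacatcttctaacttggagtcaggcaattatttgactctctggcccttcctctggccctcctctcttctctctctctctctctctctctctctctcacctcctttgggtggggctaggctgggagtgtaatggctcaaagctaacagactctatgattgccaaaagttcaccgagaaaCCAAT
Igf1r promoter, chr7:67952007-67952306, plus strand: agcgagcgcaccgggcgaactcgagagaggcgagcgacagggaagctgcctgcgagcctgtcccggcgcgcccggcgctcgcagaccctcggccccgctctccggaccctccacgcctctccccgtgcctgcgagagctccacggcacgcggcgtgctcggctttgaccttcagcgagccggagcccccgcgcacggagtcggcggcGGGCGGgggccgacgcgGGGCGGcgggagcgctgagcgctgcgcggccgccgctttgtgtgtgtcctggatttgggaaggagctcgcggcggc
Mtor promoter, chr4:148448332-148448631, plus strand: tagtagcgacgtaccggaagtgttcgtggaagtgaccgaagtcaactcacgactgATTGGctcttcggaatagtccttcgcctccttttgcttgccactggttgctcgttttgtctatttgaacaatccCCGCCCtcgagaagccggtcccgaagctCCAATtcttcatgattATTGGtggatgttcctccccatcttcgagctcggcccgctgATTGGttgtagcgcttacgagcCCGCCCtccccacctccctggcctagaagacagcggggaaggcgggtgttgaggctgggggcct
Rptor promoter, chr11:119602655-119602954, plus strand: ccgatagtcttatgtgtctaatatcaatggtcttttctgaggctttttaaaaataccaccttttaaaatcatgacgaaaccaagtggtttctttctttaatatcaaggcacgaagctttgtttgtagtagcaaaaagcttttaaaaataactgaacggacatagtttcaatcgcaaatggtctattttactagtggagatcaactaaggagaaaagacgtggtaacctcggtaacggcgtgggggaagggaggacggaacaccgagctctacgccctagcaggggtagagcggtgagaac

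These promoters differed widely in base composition. The Igf1r promoter was 76.0% G and C with 48 CpG dinucleotides and 2 GC boxes, whereas the Rptor promoter was 41.7% G and C and held none of the marked motifs, against a median of 52.7% G and C over all 32851 promoters. Mtor had 4 CCAAT boxes and 2 GC boxes, and these motifs were found in 37.4% and 35.7% of all promoters. The Igf1 promoter had 1 CCAAT box and 1 AP-1 match, the latter found in 7.81% of all promoters, and no TATA box. Igfbp4, not printed, had the set's 1 TATA box match, found in 13.6% of all promoters. The E-box (CANNTG), found in 72.3% of all promoters and not marked by capitals, was matched 1 time at Igf1, 2 times at Rptor and not at Mtor or Igf1r. None of the 10 promoters of the 7 genes had a MEF2, ERR or FoxO match in this window. The middle of the Igf1 intron 2 pair was 43.3% G and C, against a median of 49.0% over 20948 shared pairs outside promoters, and held 2 CCAAT boxes, a motif present in 29.1% of those windows. A match is a string of letters and not a bound site.

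Peaks of these genes lay mostly inside the genes. Introns held 69.6% of them in the control list and 62.9% in the detrained list, against 50.8% and 49.1% of all peaks in the lists. Only 4 peaks in each list were annotated as promoter, 8.70% in control and 11.4% in detrained mice (11.2% and 12.6% of all peaks). The annotation follows the centre of a peak, and broad peaks over a start were often listed under an intron. A peak covered the start of the gene in each list for 8 of the 9 genes, all except Igf2. Igf1r had 10 control and 7 detrained peaks, Deptor also had 10 and 7, Igfbp5 had 9 and 9, Igf1 had 7 and 5, Rptor had 4 and 4, Eif4ebp1 had 3 and 1, Igfbp4 had 2 and 1, and Mtor had 1 and 1. Of the control peaks, 63.0% (exact 95% binomial interval, 47.5% to 76.8%) overlapped a detrained peak, against 72.1% of all control peaks. Of the detrained peaks, 80% (63.1% to 91.6%) overlapped a control peak, against 82.0% of all detrained peaks. With peaks at least 4-fold over input at an adjusted p under 0.001 each list held 21, which was 45.7% of the set's control peaks and 60% of its detrained peaks, beside 50.7% and 61.5% of all peaks. These filters rest on inputs of unequal depth.

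There were 17 shared pairs in 8 genes. Both detrained libraries were below both control libraries in 7 of them and above in 2, and the groups overlapped in 8. Over all 26432 shared pairs the corresponding shares were 27.2% below and 21.3% above. The median log2 ratio was -0.11 for the set, with 12 ratios below 0 and 5 above, and -0.026 for all pairs. Of the 17, 3 were called lower, which were both Igf1 pairs and 1 Igfbp5 pair, and 1 was called higher, in Igf1r. Over all pairs 8.31% were called lower and 5.72% higher. Without the 2 Igf1 pairs the median of the remaining 15 was -0.079.

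**Figure D1:**
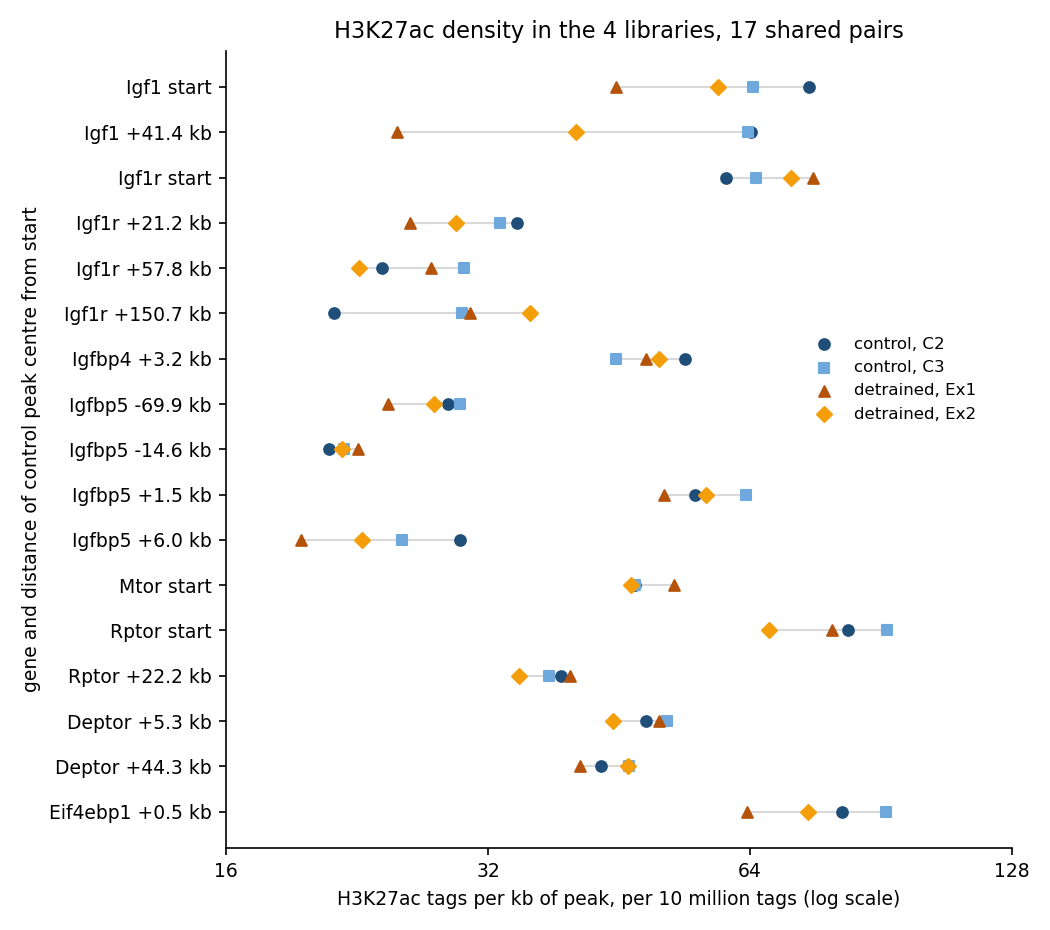
H3K27ac density (tags per kb, per 10000000 tags, log scale) in each of the 4 libraries, for the 17 shared pairs, labelled by gene and by the distance of the control peak's centre from the start. At the Igf1 pair 41.4 kb from the start the control libraries coincide near 64 and the detrained libraries lie at 25.2 and 40.4, while at most other pairs the points of the groups are close or mixed.

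Igf1, the growth factor itself, had the lowest ratios of the set. In intron 2 of 4, 41.4 kb from the start (chr10:87900405-87904565 in the control list and chr10:87900410-87905287 in the detrained list), the density was 64.1 in C2 and 63.6 in C3, against 25.2 in Ex1 and 40.4 in Ex2. The detrained values were both well below the control values, which hardly differed. The log2 ratio was -1.002 (SD 0.34, n = 2 per group), and 15 of the 26432 shared pairs had a lower ratio. Over all pairs, a fall of at least 2-fold with no overlap between groups was seen in 0.0605% and a rise of that size in 0.0151%. The pooled tags alone were 1173 in control and 695 in detrained mice, a log2 ratio of -0.95 with an exact 95% binomial interval of -1.09 to -0.81 that covers counting error only. The detrained libraries also differed from each other there: log2 Ex1 minus log2 Ex2 was -0.68, and 0.397% of all pairs had a lower value. The ratio was -0.66 without Ex1 and -1.34 without Ex2. Set against the input of its own table the pair lost its call, since the groups overlapped, the log2 ratio was -0.33 and 6461 of the shared pairs had a lower one.

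At the Igf1 start (chr10:87857422-87864420 and chr10:87858423-87863724), the density was 74.8 in C2 and 64.4 in C3, against 44.9 in Ex1 and 58.8 in Ex2. The detrained values did not overlap the control values, and Ex1 was again the lowest library. The log2 ratio was -0.43 (SD 0.22), and it was -0.24 without Ex1 and -0.33 without C2, both short of the 1.3-fold mark. Normalized to the tags in listed peaks in place of all tags the ratio was -0.38, but C3 fell just below Ex2, so the groups overlapped and the call was lost. Between these sites, in intron 2 about 24.1 kb from the start, a control peak of 5243 bp overlapped 2 detrained peaks that together covered 2899 bp. Over this merged region the density was 37.3 in C2 and 33.9 in C3, against 12.5 in Ex1 and 27.1 in Ex2, with a log2 ratio of -0.95 per covered kb and -1.81 per region. All 3 Igf1 regions present in both lists were therefore lower in both detrained libraries, in tags per kb and in tags per region. Over input, of these 3 regions, the start was the 1 that stayed lower in both detrained libraries. Near 24.1 kb the control peak had log2 values over input of 2.21 in C2 and 2.07 in C3, and the 2 detrained peaks had 1.25 and 1.32 in Ex1 and 2.12 and 2.53 in Ex2.

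The peaks of the genes near Igf1 were not lower as a group. Within 500 kb of the gene, 8 shared pairs assigned to 3 other genes had a median log2 ratio of 0.12, and in 0 of them were both detrained libraries below both control libraries. Of the Igf1 peaks in 1 list only, 4 were control peaks and 1 was a detrained peak. The densest control peak among these lay at -2.69 kb, with a density of 21.7 in C2 and 25.1 in C3, and the detrained peak lay at -28.1 kb, with 12.3 in Ex1 and 10.1 in Ex2. Marker lists of cell types that can make IGF1 summed to more tags in detrained mice, over more covered sequence. The fibroblast list (Pdgfra, Col1a1, Col1a2, Col3a1 and Dcn, 5 of 5 with peaks) summed to 3417 tags in C2 and 3283 in C3, against 4020 in Ex1 and 4009 in Ex2, per 10000000, over 89.3 and 103.7 kb, and the median log2 ratio of its 19 shared pairs was 0.10. The macrophage and leukocyte list summed to 168, 133, 293 and 239 tags in the same order, over 6.92 and 12.7 kb, from 4 control peaks in 3 of its 5 genes and 7 detrained peaks in 4 of them, with none at Cd68. The macrophage list had 1 shared pair, with a log2 ratio of 0.037. The satellite cell list (179, 173, 227 and 246) and the smooth muscle and pericyte list (781, 837, 986 and 933) also summed to more tags in both detrained libraries, over 9.96 and 14.3 kb and over 29.6 and 37.5 kb. In density the median log2 ratio of their shared pairs was -0.049 (4 pairs) and -0.0015 (3 pairs). In the myofibre list (5021, 6465, 6181 and 6069), the endothelial list (2226, 2615, 2899 and 2290) and the Schwann cell list (90.7, 96.1, 121 and 93.3) the groups overlapped, and the adipocyte genes Adipoq and Plin1 had no peak. The part of these cell types in the Igf1 result was not tested.

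Igf2, the second ligand, which is high before birth and low in adult muscle, had 0 peaks in either list. No peak of any gene lay in its body (chr7:142650768-142666816). The nearest control peak lay 47.1 kb beyond its 3′ end and was assigned to H19, the adjacent imprinted gene, with a density of 81.9 in C2 and 104 in C3. In detrained mice the H19 peak had a density of 101 in Ex1 and 100.4 in Ex2, and the nearest peak, 20.8 kb beyond the 3′ end and assigned to Mir483, was weak at 23.9 and 28.4.

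**Figure D2:**
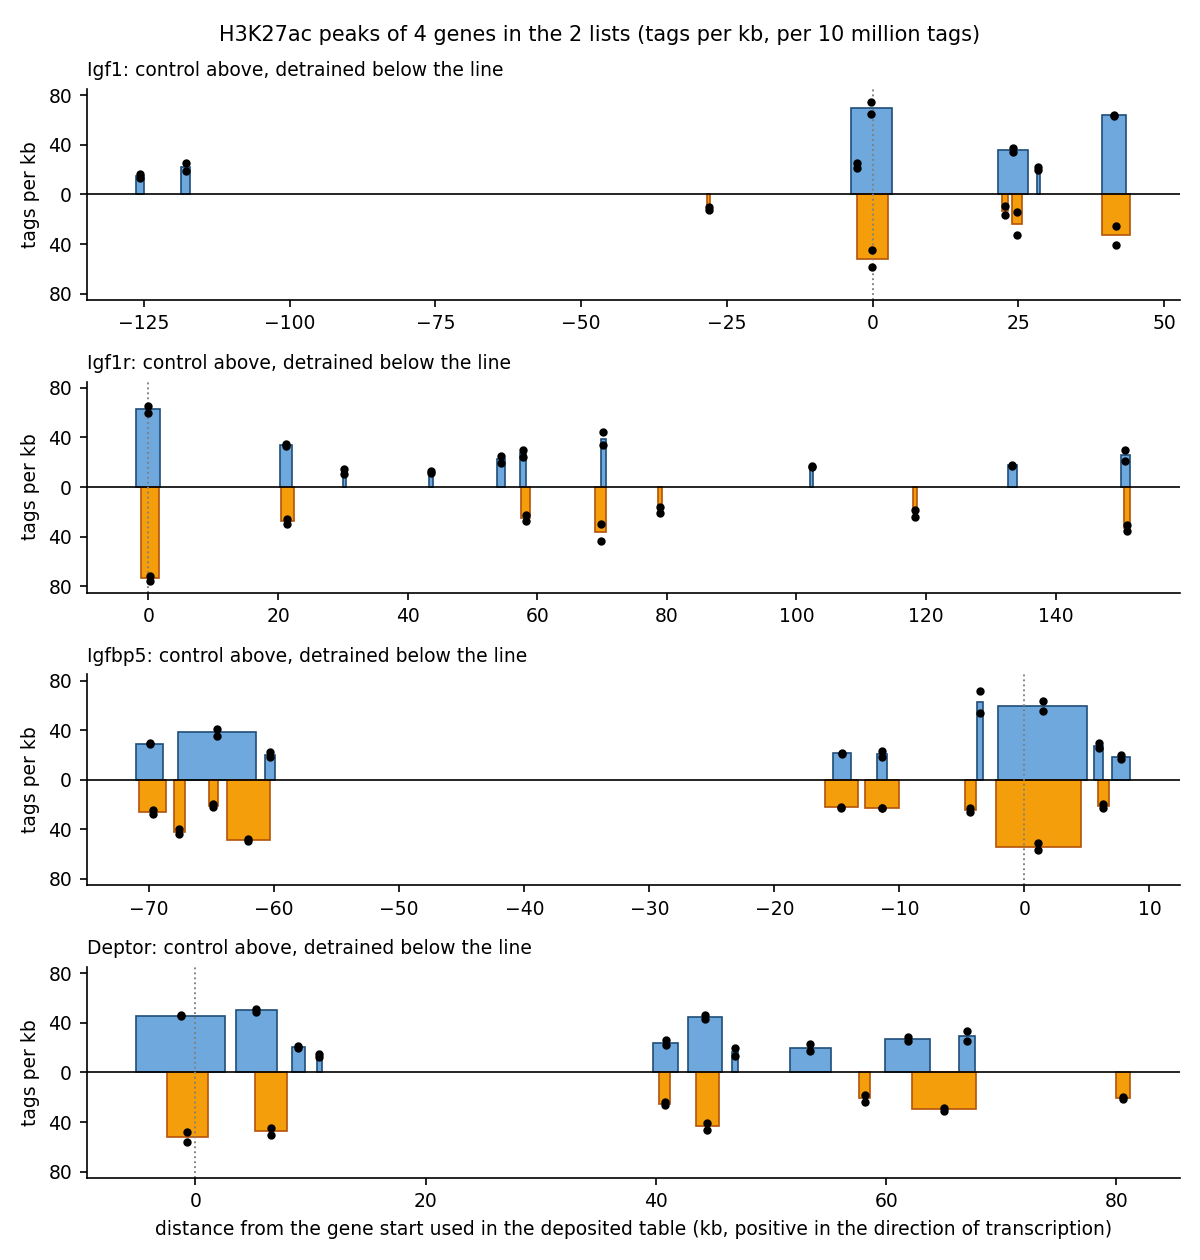
Peaks of Igf1, Igf1r, Igfbp5 and Deptor by distance from the start in kb, with control peaks drawn upward and detrained peaks downward. The height is the mean density of the 2 libraries in tags per kb per 10000000 tags, the width is the peak length and the black points are the libraries. The Igf1 bars at the start, near 24.1 kb and near 41.4 kb are taller in the control list, and at the start of Igf1r the detrained bar is taller.

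Igf1r, the receptor gene, had a higher density in detrained mice at its start, in tags per kb and not in the other measures. Its promoter pair (chr7:67950387-67954043 and chr7:67951081-67953901) had a density of 60.1 in C2 and 65.1 in C3, against 75.6 in Ex1 and 71.3 in Ex2. These were higher in both detrained libraries, with a log2 ratio of 0.23 (SD 0.071), below the 1.3-fold mark. The detrained peak was shorter, 2820 bp against 3656 bp, and in tags per peak the ratio turned to -0.14. Over input it turned to -0.35, with both detrained libraries below control. The densest other pair, in intron 1 at 21.2 kb, went the other way: 34.5 in C2 and 33.1 in C3, against 26.05 in Ex1 and 29.4 in Ex2, a log2 ratio of -0.29 (SD 0.093). Peaks of genes near Igf1r were often lower too: of 21 shared pairs of 6 other genes within 500 kb, 13 were lower in both detrained libraries and 1 was higher, and the median log2 ratio was -0.26. Around the other 7 genes with peaks this median lay between -0.075 and 0.12.

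A weak pair in intron 2 of Igf1r, 150.7 kb from the start, was the 1 pair of the set called higher. Its density was 21.3 in C2 and 29.8 in C3, against 30.5 in Ex1 and 35.7 in Ex2, a log2 ratio of 0.39 (SD 0.27). Ex1 lay just above C3, the pooled tags were 150 and 126, and per peak the ratio was -0.20. Without C2 the ratio was 0.15 and without Ex2 it was 0.28, both short of the 1.3-fold mark. Over input the ratio was 0.073 and the groups overlapped. The fourth pair, at 57.8 kb, had overlapping groups and a log2 ratio of -0.11. The ratio turned to 0.42 in tags per peak, with both detrained libraries above control. At 70.2 kb a control peak of 762 bp faced a detrained peak of 1592 bp. In tags per region it had 33.7 in C2 and 25.9 in C3, against 69.2 in Ex1 and 47.0 in Ex2, a log2 ratio of 0.95. Per kb the groups overlapped there, with a ratio of -0.11. Igf1r had 5 peaks in the control list only and 2 in the detrained list only, all in introns. The densest of these lay at 54.4 kb in control (25.0 in C2 and 19.5 in C3) and at 118.4 kb in detrained mice (24.1 in Ex1 and 18.4 in Ex2).

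The binding protein genes had overlapping groups at their starts in tags per kb. The broad Igfbp4 pair over the start and intron 1 (chr11:99040272-99048626 and chr11:99039861-99049300) had a density of 53.9 in C2 and 44.9 in C3, against 48.6 in Ex1 and 50.3 in Ex2. The detrained values lay between the control values, with a log2 ratio of 0.0091 (SD 0.13). In the other measures both detrained libraries were above control, by a log2 ratio of 0.19 in tags per peak and of 0.35 over input, and 23642 of the 26432 shared pairs had a lower ratio over input. The Igfbp5 pair over the start and intron 1 (chr1:72869832-72876946 and chr1:72870331-72877168) had 55.4 in C2 and 63.4 in C3, against 51.0 in Ex1 and 56.99 in Ex2, so the groups overlapped, and the log2 ratio was -0.14 (SD 0.13). In tags per peak both detrained libraries were below control, by -0.19.

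A short Igfbp5 pair 5.95 kb into the gene was called lower, at the limit of the rule. It had a density of 29.7 in C2 and 25.5 in C3, against 19.5 in Ex1 and 22.9 in Ex2, a log2 ratio of -0.38 (SD 0.16) from 87 and 81 pooled tags, and the counting interval of the pooled ratio, -0.83 to 0.075, included 0. Without C2 or Ex1 the ratio was -0.27 or -0.26, short of the 1.3-fold mark. In tags per peak this ratio was -0.070 and over input it was 0.019, with overlapping groups in both measures. The upstream pairs had log2 ratios of 0.051 at -14.6 kb, with overlapping groups, and -0.16 at -69.9 kb, where both detrained libraries were lower. The detrained peak at -14.6 kb was longer, and in tags per peak the pair had 29.8 in C2 and 30.9 in C3, against 60.7 in Ex1 and 58.1 in Ex2, a log2 ratio of 0.97. Between -67.6 and -60.3 kb, 2 control peaks of 7011 bp in all faced 3 detrained peaks of 5108 bp, with a density of 33.6 in C2 and 38.6 in C3, against 42.7 in Ex1 and 43.6 in Ex2. Both detrained libraries were higher there per kb, by a log2 ratio of 0.26, and lower per region, by -0.20. At -11.4 kb a control peak of 792 bp faced a detrained peak of 2652 bp, and the log2 ratio was 1.85 in tags per region and 0.11 per kb, with overlapping groups per kb. Of the Igfbp5 peaks in 1 list only, the densest control peak, of 500 bp at -3.53 kb, had 71.7 in C2 and 53.7 in C3, and a detrained peak at -4.35 kb had 22.7 in Ex1 and 25.7 in Ex2. The other Igfbp4 peak was in the control list only, 14.5 kb from the start, with 14.9 in C2 and 19.4 in C3.

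Mtor, which encodes the kinase, had a single peak in each list, over its start (chr4:148447395-148449677 and chr4:148447714-148449431). Its density was 47.3 in C2 and 47.2 in C3, against 52.3 in Ex1 and 46.7 in Ex2. The groups overlapped and the log2 ratio was 0.066 (SD 0.082). In the other measures both detrained libraries were lower, by a log2 ratio of -0.34 in tags per peak (107.8 and 107.6 in control, 89.8 and 80.2 in detrained libraries) and of -1.399 over input. Rptor, the gene of the mTORC1 scaffold, had one of the densest pairs of the set at its start (chr11:119602136-119603746 and chr11:119602075-119603873), with 83.0 in C2 and 92.0 in C3, against 79.5 in Ex1 and 67.3 in Ex2. The detrained values were both lower, with a log2 ratio of -0.26 (SD 0.14), below the 1.3-fold mark. The groups overlapped in tags per peak, with a ratio of -0.096, and over input, with a ratio of 0.037.

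Further into Rptor the pair at 22.2 kb had overlapping groups and a log2 ratio of -0.041 (SD 0.099). Both detrained libraries were lower there in tags per peak, by -0.48. In intron 2 about 62.3 kb from the start, 2 control peaks of 4168 bp in all faced 1 detrained peak of 6912 bp. The density was 43.6 in C2 and 44.2 in C3, against 36.0 in Ex1 and 35.7 in Ex2, a log2 ratio of -0.29. The tags of the region were 182 and 184 in control and 249 and 247 in detrained libraries, a log2 ratio of 0.44. The direction at this site thus depended on whether the covered length was taken into account. The 1 Rptor peak in the detrained list only lay at 12.7 kb, with 23.5 in Ex1 and 25.6 in Ex2.

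Deptor, the inhibitor of mTOR, had close densities in the groups at most sites, with fewer peaks and a shorter covered length in the detrained list. The peak over its start was 7692 bp long in control and 3531 bp long in detrained libraries, too unlike for a shared pair, and its density was 46.6 in C2 and 45.1 in C3, against 48.3 in Ex1 and 56.2 in Ex2. Per kb the detrained libraries were both above control, by a log2 ratio of 0.18, and per region both below, by -0.94. The pairs in intron 1 at 5.30 kb and in intron 3 at 44.3 kb had overlapping groups, with log2 ratios of -0.079 (SD 0.096) and -0.044 (SD 0.11). In tags per peak both were lower in both detrained libraries, by -0.40 and -0.63. Over input the pair at 5.30 kb was higher in both, by 0.19, and the pair at 44.3 kb was lower in both, by -0.78. Between 61.9 and 67.0 kb, 2 control peaks of 5266 bp in all faced 1 detrained peak of 5580 bp. Both detrained libraries were higher there, by a log2 ratio of 0.11 per kb and 0.20 per region. Near 40.8 kb the groups overlapped per kb (0.090), and per region both detrained libraries were lower, by -0.99. Deptor had 4 peaks in the control list only, the densest at 8.93 kb with 19.4 in C2 and 21.3 in C3, and 2 in the detrained list only, the denser at 58.1 kb with 18.0 in Ex1 and 23.8 in Ex2.

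Eif4ebp1, whose product holds back translation until mTORC1 phosphorylates it, was densest at its start and intron 1. The pair there (chr8:27258699-27263007 and chr8:27259229-27266371) had a density of 81.8 in C2 and 91.8 in C3, against 63.5 in Ex1 and 74.7 in Ex2. The detrained values were again both lower, with a log2 ratio of -0.33 (SD 0.14), just under the 1.3-fold mark, and it was past that mark without C2 (-0.42) or Ex2 (-0.45). In tags per peak the ratio turned to 0.40, with both detrained libraries above control, and over input it was 0.13 with overlapping groups. The detrained peak was 7142 bp against 4308 bp and also overlapped the next control peak, at 5.33 kb. With both control peaks merged, the density was 59.2 in C2 and 66.6 in C3, against 63.5 in Ex1 and 74.7 in Ex2, the groups overlapped, and the log2 ratio was 0.13. The remaining peak, at 8.82 kb, was in the control list only, with 17.9 in C2 and 19.3 in C3.

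**Figure D3:**
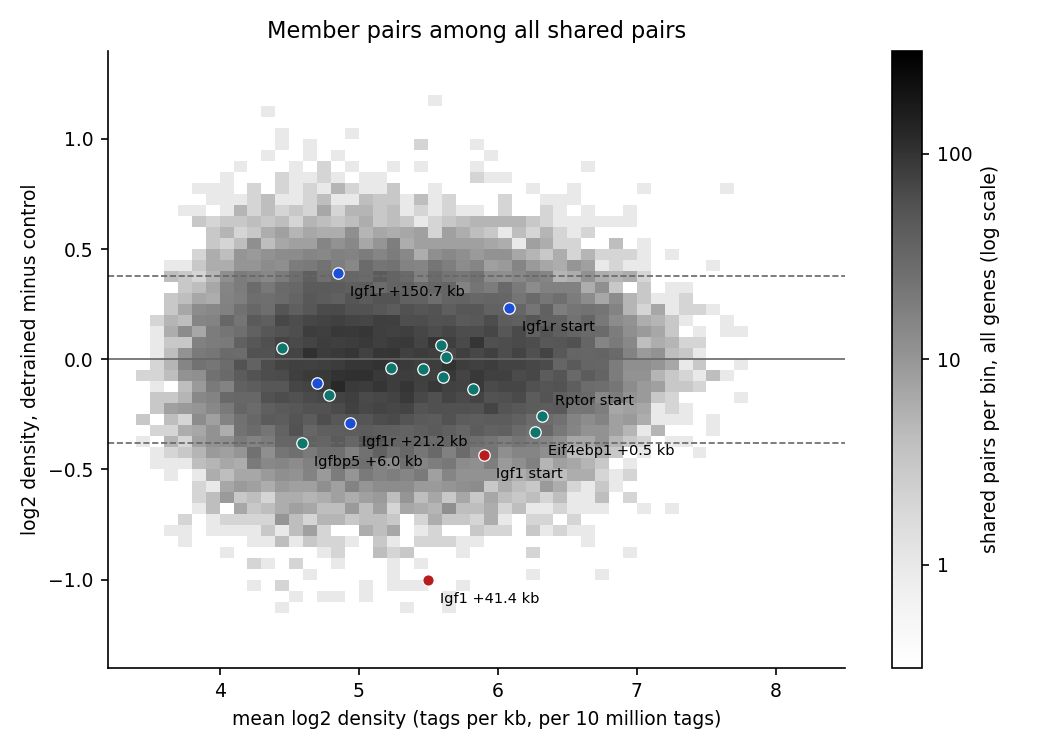
Log2 ratio of density (detrained minus control) against mean log2 density for all 26432 shared pairs, as a grey two-dimensional histogram, with the 17 pairs of the set as points (Igf1 red, Igf1r blue, others green) and dashed lines at 1.3-fold. The Igf1 pair at 41.4 kb lies at the lower edge of all pairs, and the other points lie within the bulk.

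Merging all overlapping peaks gave 49 regions with a peak of these genes, of which 25 had peaks in both lists, 17 in the control list only and 7 in the detrained list only. These were 51.0%, 34.7% and 14.3% of the 49, beside 60.9%, 25.1% and 14.0% of all 52193 regions. In tags per region 14 of the 25 were lower in both detrained libraries and 7 were higher, beside 29.5% and 28.2% of the 31776 regions with peaks in both lists. Per covered kb, 8 of the 25 were lower and 5 higher, beside 27.2% and 21.5% of those 31776, and the median log2 ratio was -0.044. The set as a whole was thus lower in tags more often than in density.

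Summed over all of a gene's peaks, Igf1 had 1070 tags per 10000000 in C2 and 964 in C3, against 402 in Ex1 and 592 in Ex2, a log2 ratio of -1.06 (SD 0.29). The covered length was 20.4 kb in the control list and 13.6 kb in the detrained list, and per covered kb the ratio was -0.47. Among 13524 genes with peaks in both lists, 390 had a lower log2 ratio of summed tags. Deptor had 951, 985, 631 and 648 tags in the same order, a log2 ratio of -0.60 (SD 0.031), with a covered length of 27.4 kb in control and 17.1 kb in detrained mice, and per kb the ratio was 0.083. Both detrained libraries were below both control libraries in 4 of 8 genes (Igf1, Igf1r, Mtor and Deptor) and above in 1 (Rptor), beside 35.2% and 24.3% of all genes. Igf1 was the 1 gene of these 5 whose order was the same per covered kb.

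**Figure D4:**
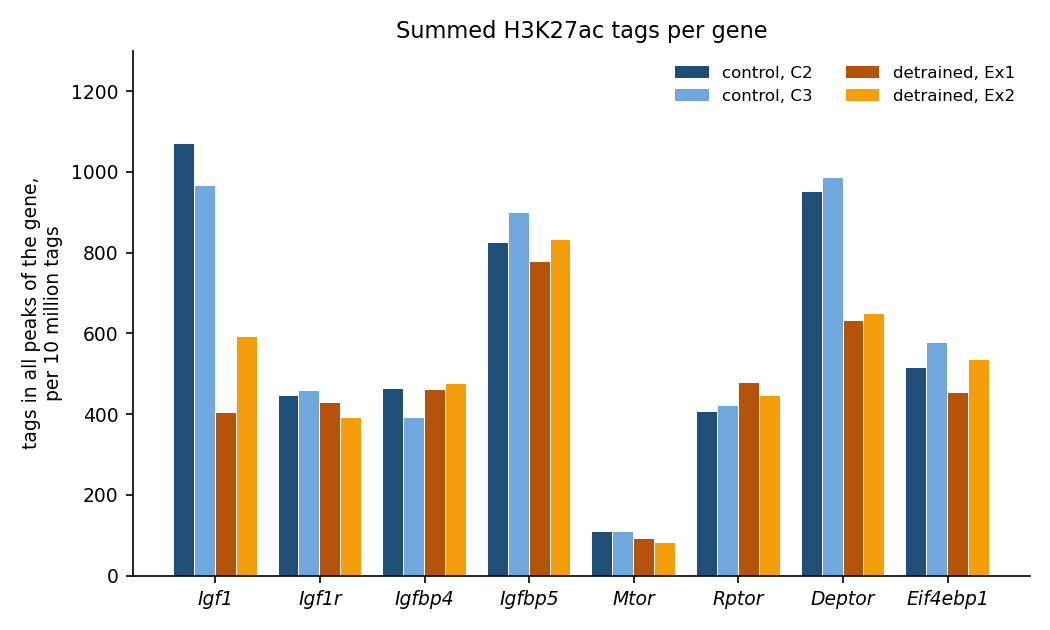
Tags in all peaks of each gene per 10000000 tags of the library, as 4 bars per gene for C2, C3, Ex1 and Ex2. The bars of Igf1, Igf1r, Mtor and Deptor are lower in both detrained libraries, by the most at Igf1 and Deptor, those of Rptor are higher in both, and the groups overlap at Igfbp4, Igfbp5 and Eif4ebp1.

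The log2 values of the tables were also set against the input of the same table, an alternative chosen after the data were seen. There is 1 input per group, and the control input was the shallower. Over input, both detrained libraries were below both control libraries in 6 of the 17 pairs and above in 3, beside 38.6% and 22.2% of all pairs. The 6 were the starts of Igf1, Igf1r and Mtor, the Deptor pair at 44.3 kb and the Igfbp5 pairs at -14.6 and -69.9 kb, and the 3 were Igfbp4, the Igf1r pair at 21.2 kb and the Deptor pair at 5.30 kb. The Igf1 promoter stayed lower, with log2 values over input of 3.28 in C2 and 3.06 in C3, against 2.30 in Ex1 and 2.69 in Ex2. At the Igf1 intron 2 pair they were 2.74, 2.73, 2.06 and 2.75, so that Ex2 was no longer below control. Mtor had 3.91 in both control libraries, 2.59 in Ex1 and 2.43 in Ex2, a log2 ratio of -1.399, with 58 of the 26432 shared pairs lower. The Deptor pair at 44.3 kb, also close in density, had 3.23 and 3.34 in control and 2.41 and 2.60 in detrained libraries, a log2 ratio of -0.78. Igfbp4 had 2.99 and 2.73 in control and 3.19 and 3.24 in detrained libraries. The Igf1r promoter turned from 0.23 to -0.35 and the Igf1r pair at 21.2 kb from -0.29 to 0.53. Of the 3 pairs called lower by density, the Igf1 promoter remained below in both libraries over input, and the Igfbp5 pair at 5.95 kb had a ratio of 0.019 with overlapping groups. The 1 pair called higher, in Igf1r at 150.7 kb, had 1.46 in C2 and 1.95 in C3, against 1.66 in Ex1 and 1.90 in Ex2, and so was not called over input.

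**Figure D5:**
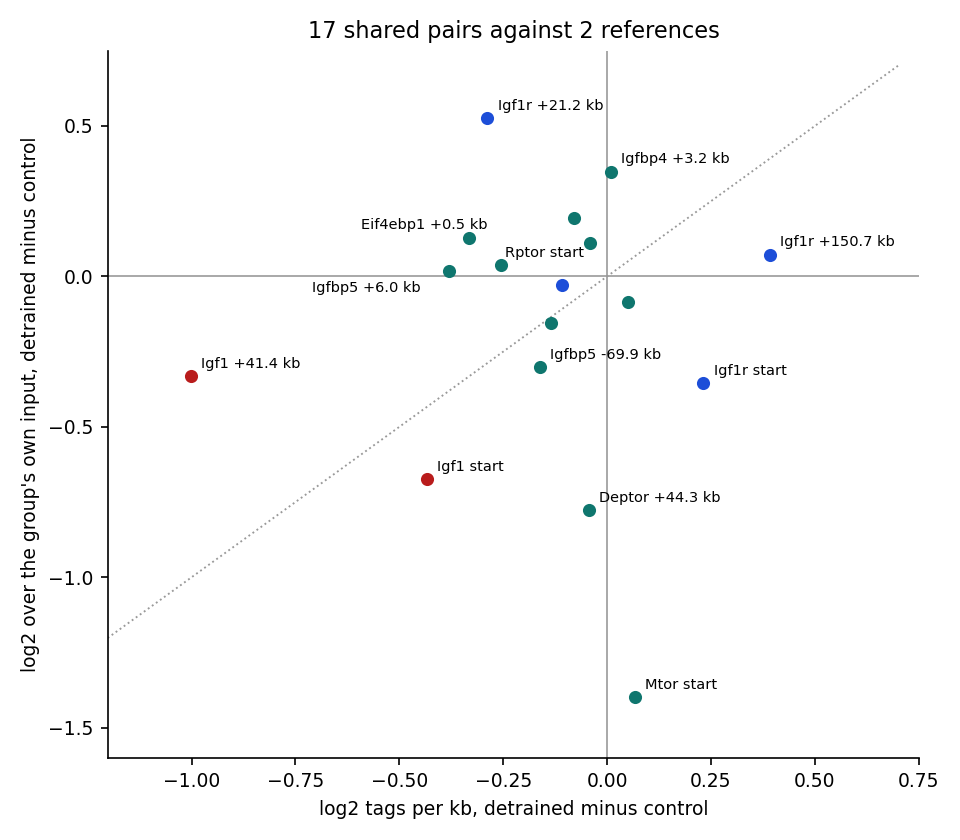
Log2 ratio over the group's own input against log2 ratio of tags per kb for the 17 shared pairs (both detrained minus control, dotted line for equal values, Igf1 red, Igf1r blue, others green). Igf1 lies below 0 on both axes, and Mtor and the Igf1r start lie above 0 in tags per kb and below 0 over input.

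The rest of the pathway was followed in a list of 59 genes for IGF transport, PI3K and AKT signalling and the mTOR complexes. Of these, 53 had a peak and 51 had a shared pair, 121 pairs in all, while Castor1, Castor2, Igfbp1, Lamtor1, Lamtor2 and Tsc2 had no peak. Both detrained libraries were below both control libraries in 33 pairs (27.3%) and above in 28 (23.1%), close to the shares over all pairs, and the median log2 ratio was 0.0092. By the 1.3-fold rule 13 pairs (10.7%) were lower and 6 (4.96%) higher, beside 8.31% and 5.72% of all pairs. Igfals, which encodes the acid-labile subunit of the circulating IGF complex, was lower at its promoter, with 80.2 in C2 and 72.6 in C3, against 33.6 in Ex1 and 58.4 in Ex2. As at Igf1, Ex1 was the lowest library at this promoter, and the log2 ratio was -0.79. In tags per peak the ratio of the promoter pair was -0.84. A second Igfals pair, at 2.78 kb, was also called lower (-0.51), but in tags per peak its ratio turned to 0.46.

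Among the lowest pairs were also those of the 4E-BP family gene Eif4ebp3 (log2 ratio of density -0.83), the cap-binding factor gene Eif4e (-0.74), the Rag GTPase gene Rragd (-0.67) and the promoter of Depdc5 (-0.64), a subunit of the GATOR1 complex that restrains mTORC1. In tags per peak the Eif4e ratio was 0.0019 and that of the Depdc5 promoter was 0.24. Among the highest pairs were a second Depdc5 pair, in an intron at 67.1 kb (0.94), and pairs of Sesn3 (0.57), Pik3r3 at its promoter (0.57) and Irs2 at -5.01 kb (0.53). At Depdc5 the intron pair had 15.5 in C2 and 21.5 in C3, against 37.6 in Ex1 and 32.6 in Ex2, and its ratio per peak was 0.90. Irs2, an insulin receptor substrate gene, had a ratio of -0.52 at its start, and a further Sesn3 pair, at -217.2 kb, had -0.40, so Depdc5, Irs2 and Sesn3 each held a pair called lower and a pair called higher. In tags per peak the Irs2 ratios were 0.16 at the start and -0.023 at -5.01 kb, so both changed sign, and those of Sesn3 changed sign too (0.26 for the lower pair and -0.071 for the higher). The Pik3r3 ratio turned to -0.089 in tags per peak.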

How the data were processed

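H3K27ac ChIP-seq was made from quadriceps, with reads mapped by the authors to mm10 with Bowtie and 1 peak list per group called with HOMER, from its H3K27ac libraries over its input. In the deposited tables the pooled signal is tags per 10000000 total tags, and the log2 values per library are regularized values normalized to total tags within each table, shrunken most at low tag numbers. The deposited fold over input and its p-value were used only to select stricter peaks (4-fold, 0.001). From these, pooled tags were recovered (all within 0.25 of a whole number), shared out between libraries, and expressed as (tags + 0.5) per kb per 10000000 tags. Intervals cover counting error only. Control columns C2 and C3 are numbered differently in the labels and were assigned to the group only. The genes, the pathway and marker lists and the rules for naming pairs were chosen with earlier results of these data known: for each gene the densest promoter pair, the densest other pair, every called pair and the densest peak of each list alone, and of the other pathway genes the 5 called pairs of largest ratio in each direction, of which 1 is not reported here. The Irs2 start pair, the lower Sesn3 pair and the Igfals pair at 2.78 kb were named after their values were seen. The sharing of tags, the density, the call rule and the overlap count were run on simulated data. The simulated tags held counting error only, with unshrunken library values and the same peak length in both groups. Variation between animals, shrinkage and peaks of unlike length were thus not covered. The software was matplotlib 3.10.9, scipy 1.17.1, pandas 2.3.3 and numpy 2.4.6 under Python 3.11.15.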

Additional observations from a re-analysis of the deposited data

How the results depend on the processing

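The median log2 ratio over the shared pairs of the set, -0.11, was -0.21 in the 6 pairs whose peaks covered 80% of each other and -0.028 over the input of the same table. It ranged from -0.19 to -0.064 when each library was left out in turn. The number of called pairs, 4, was 8 in tags per peak (both Igf1 and both Deptor pairs and Rptor at 22.2 kb lower, Eif4ebp1, Igf1r at 57.8 kb and Igfbp5 at -14.6 kb higher), 1 with 80% covered, 2 when normalized to the tags in listed peaks (without the Igf1 start and Igfbp5 pairs), 2 with stricter peaks and 1 at 2-fold. It ranged from 2 to 4 with a library left out, and was 2 without C2 and 2 without Ex1. With stricter peaks the lists held 21 and 21 peaks of the set in place of 46 and 35, and 90.5% of the control peaks overlapped the detrained list, beside 88.7% of all stricter control peaks. When an overlap had to span 50% of both peaks, the shares were 37.0% and 48.6% in place of 63.0% and 80%, beside 56.3% and 64.9% of all peaks. The Igf1r pair at 150.7 kb turned to -0.20 in tags per peak, and the Igfbp5 pair at 5.95 kb to 0.019 over input. The Igf1 pairs kept a ratio below 0 under all 12 alternatives that gave a value at the start and all 13 in intron 2. Leaving out 1 library could not change the sign, because both detrained libraries were below both control libraries. Stricter peaks and other overlap rules left the ratio of a kept pair the same. Among the alternatives that could change it, tags per peak and input gave -0.83 and -0.67 at the start, and -0.77 and -0.33 in intron 2. No paired analysis was possible because, by the study's methods, control and detrained libraries came from separate, randomly assigned mice. The control columns C2 and C3 also could not be tied to the numbers 1 and 2 of their labels. The ratios come from no test, so the replicate number was not fitted as a block. For the shifts above the cause was not tested. Each group had 1 input and 2 libraries, so weak pairs, such as those under 150 pooled tags, are limited by counting.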
